A study of Homo sapiens with 16 samples.

Results

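The 9 genes described here encode enzymes that make serine, pass its carbon to folate, or make asparagine: PHGDH, PSAT1, PSPH, SHMT1, SHMT2, MTHFD2, MTHFD1L, ALDH1L2 and ASNS. They were picked by name and not by a threshold on a measured value, from a deposited table of translation ratios for 28252 genes. The choice was made with earlier results of these data known. Shares of members set against all genes therefore describe the set and are not an independent test of it. All 9 had a row in it and a ratio in each of the 8 cultures, as did 15864 genes in all.

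The cells were H9, an established human embryonic stem cell line, grown without feeder cells in mTeSR1 medium. They carried either a control siRNA, labelled NC, or an siRNA against OCT4 (POU5F1), the transcription factor that keeps such cells pluripotent, and were held at 20% or at 1% oxygen. The 4 groups were control cells at 20% oxygen, siOCT4 cells at 20% oxygen, control cells at 1% oxygen and siOCT4 cells at 1% oxygen, with 2 cultures in each. Each culture gave a library of total RNA and a library of RNA held in ribosome-nascent chain complexes (RNC), the ribosomes caught while translating, and the authors divided the RNC value by the RNA value of each gene to give its translation ratio. The labels state no siRNA dose, no time in low oxygen and no separate origin for the replicates, so a p-value covers only the spread between these cultures, which may be technical.

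The ratio holds no level and no read count, so a higher ratio can come from more RNC signal or from less total RNA, and the depth behind a value is unknown. For the same reason it cannot show the knockdown. POU5F1 itself had ratios of 0.758 and 0.981 in control cells at 20% oxygen, 1.41 and 1.42 in siOCT4 cells at 20%, 1.13 and 0.81 in control cells at 1%, and 0.453 and 0.532 in siOCT4 cells at 1%. All 14 pluripotent stem cell markers examined had a ratio in every culture, but so did 8 of 11 fibroblast, 7 of 12 trophectoderm and amnion, 10 of 11 mesendoderm and 9 of 10 neural markers. A ratio does not say how much of a marker was present, so the part of other cell types in the results was not tested.

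Serine is made from an intermediate of glycolysis in a short chain of reactions by PHGDH, PSAT1 and PSPH. Serine hydroxymethyltransferases then split it into glycine and a one-carbon unit bound to tetrahydrofolate, and mitochondrial enzymes turn that unit into formate, which is exported for the synthesis of purines and thymidylate in dividing cells. The genes for several of these enzymes, and for ASNS, are known targets of ATF4, a transcription factor of the response to amino acid shortage and other stress.

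The members differ in base composition, and in 2 of the 4 groups the ratio of all genes went with it. Transcript GC content was 58.3% for PHGDH, 55.2% for SHMT2, 51.9% for MTHFD1L, 51.5% for SHMT1, 49.8% for PSPH, 47.0% for ASNS, 42.3% for PSAT1, 42.1% for ALDH1L2 and 41.4% for MTHFD2, against a median of 49.3% over the tested genes. A smooth curve on GC content captured 71.7% and 64.9% of the variance among genes, on the log2 scale, in control cells at 20% oxygen, and siOCT4 cells at 1% oxygen were alike, with 64.4% and 66.3%. The curve was flatter elsewhere, with 14.2% and 9.17% in siOCT4 cells at 20% oxygen, while control cells at 1% had 0.0625% and 10.1%. Below, each result is therefore given as deposited and, where that changes the call or the direction or moves a fold by over 1.5 times, also as the distance of the log2 ratio from the GC curve of its culture, called GC corrected.

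The coding sequences show this difference directly. Codons 101 to 130 are printed for the 2 members with the lowest and the 2 with the highest ratio in siOCT4 cells at 1% oxygen, from GENCODE 29 transcripts (GRCh38), with G or C at the third position of a codon in capitals.
PHGDH: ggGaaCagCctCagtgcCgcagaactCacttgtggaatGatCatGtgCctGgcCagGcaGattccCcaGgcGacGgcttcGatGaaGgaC
SHMT2: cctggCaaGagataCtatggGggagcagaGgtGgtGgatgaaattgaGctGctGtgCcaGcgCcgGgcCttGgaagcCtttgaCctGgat
MTHFD2: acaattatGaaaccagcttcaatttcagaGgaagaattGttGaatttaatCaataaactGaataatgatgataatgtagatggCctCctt
ALDH1L2: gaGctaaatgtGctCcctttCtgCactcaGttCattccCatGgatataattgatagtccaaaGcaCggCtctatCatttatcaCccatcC
Of the 30 codons shown, 22 end in G or C in PHGDH and 19 in SHMT2, but 8 in MTHFD2 and 15 in ALDH1L2. Over the whole coding sequence the share is 69.1% in PHGDH, 68.1% in SHMT2, 41.3% in MTHFD2 and 44.4% in ALDH1L2. In the members not printed it is 65.3% in SHMT1, 52.9% in MTHFD1L, 50.9% in PSAT1, 44.7% in PSPH and 41.8% in ASNS. PSPH and ASNS thus had shares near those of ALDH1L2 and MTHFD2. Their geometric mean ratios in siOCT4 cells at 1% oxygen were 1.02 and 1.18, against 5.03 and 2.26. The printed genes were picked by ratio where the ratio went with GC content, so their contrast is no test of that link.

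**Figure D1:**
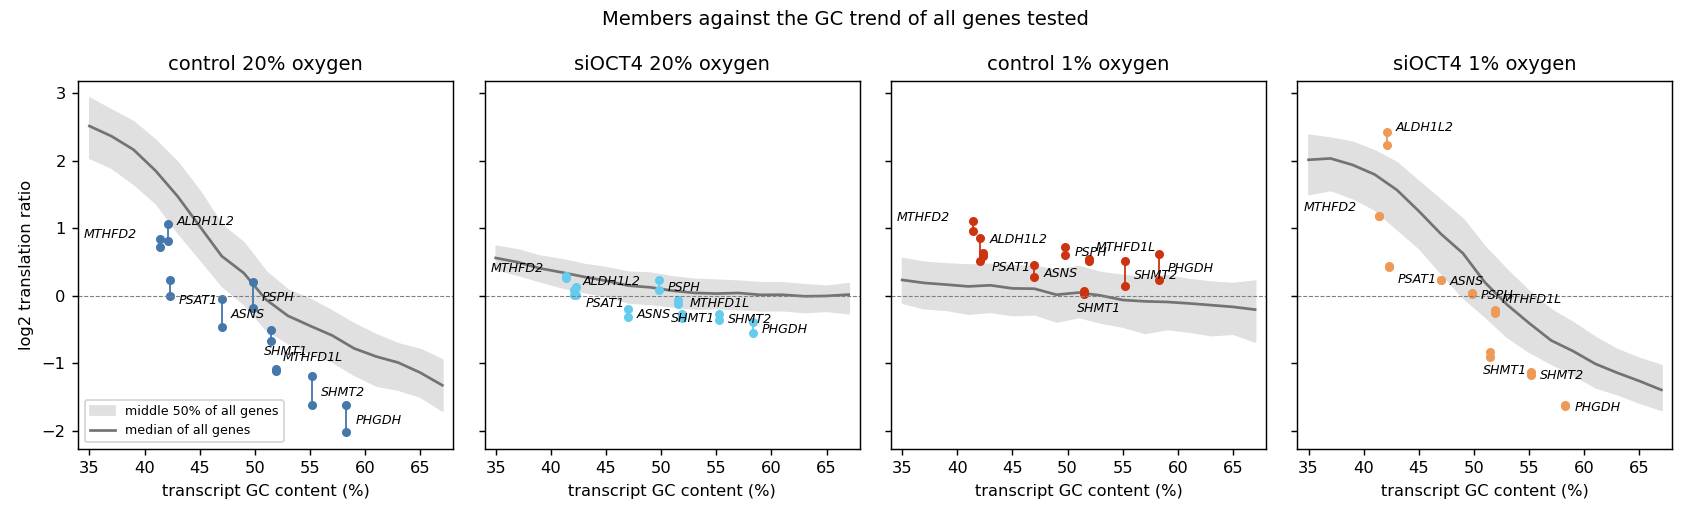
Log2 translation ratio of the 9 members (joined points, 2 cultures per group) against transcript GC content in percent, with the median (line) and middle 50% (band) of all genes tested with a GC content, in bins of 2 percent, in the 4 groups. The curve fitted to all genes of a culture is not drawn. In control cells at 1% oxygen all 9 members lie above that curve, SHMT1 by only 0.07 and 0.04. In the other groups at most 1 member does in any culture.

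Control cells at 1% oxygen stood apart for this set of enzymes. There, all 9 members had ratios above 1 in both cultures, from 1.05 for SHMT1 to 1.95 for MTHFD2 in replicate 1 and from 1.02 to 2.15 for the same genes in replicate 2. Of all tested genes, 52.0% were above 1 in each of these cultures. The members' median ratio was 1.42 and 1.45, against 1.02 and 1.02 over all genes. In the other 6 cultures 2 to 5 of the 9 members were above 1, and 53.8% to 65.9% of all genes.

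Ranked among all genes of the same culture, the median member lay at percentile 79.5 and 79.4 in control cells at 1% oxygen. It lay at 45.2 and 26.0 in control cells at 20%, at 24.0 and 30.4 in siOCT4 cells at 20% and at 41.1 and 42.3 in siOCT4 cells at 1%. GC corrected, these percentiles in control cells were 80.7 and 80.1 at 1% oxygen but 11.8 and 9.4 at 20%. In siOCT4 cells they were 18.2 and 28.8 at 20% and 19.2 and 18.3 at 1%. So the median member ranked high in 1 group and below the middle in the other 3, with or without the correction. Single members departed from this. As deposited MTHFD2 lay at 60.7 to 66.8 in the other 3 groups, and ALDH1L2 at 95.5 and 91.7 in siOCT4 cells at 1%. SHMT1 lay at 53.0 and 49.5 in control cells at 1%. All 9 lay above the GC curve in both control cultures at 1% oxygen, against 0 or 1 of 9 in each of the other 6 cultures and 50.6% to 53.1% of all genes in any culture.

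**Figure D2:**
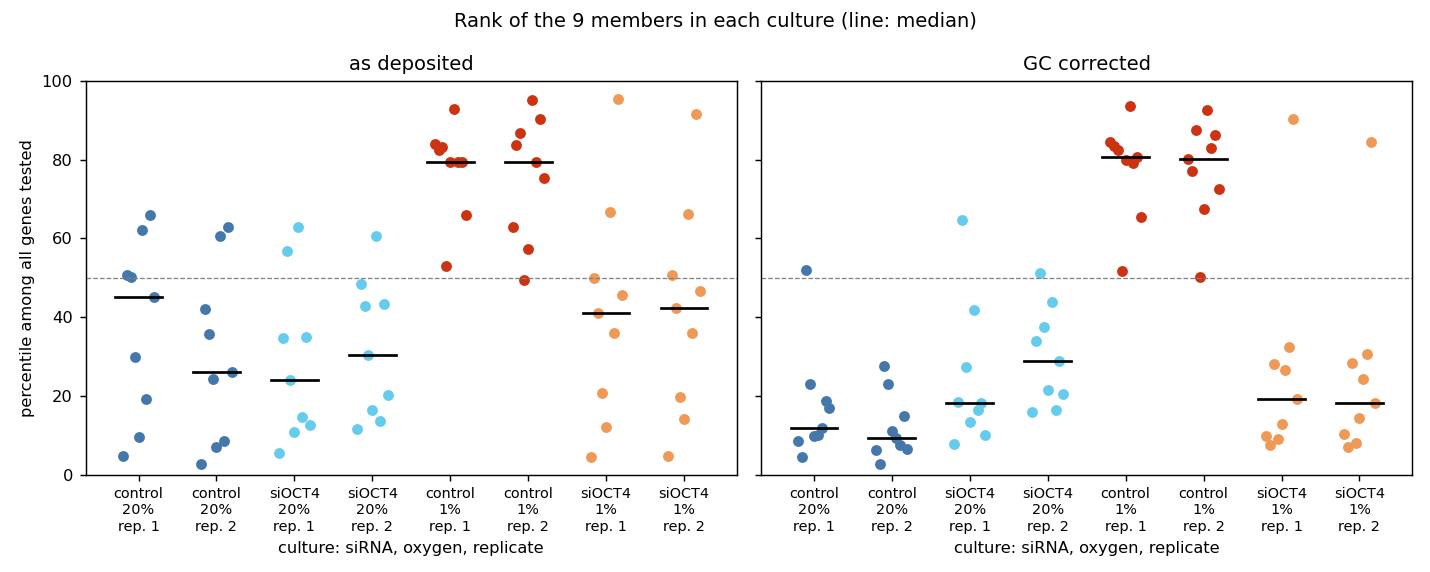
Percentile of each member (points, in the order PHGDH to ASNS given in the text) among all genes tested, by culture, as deposited and GC corrected, with the median of the 9 as a line. The medians in control cells at 1% oxygen, 79.5 and 79.4 as deposited, are the highest of the 8 cultures, and ALDH1L2 is the point near the top in siOCT4 cells at 1%.

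The spread among the members also differed between groups. The highest ratio was 8.43 and 5.42 times the lowest in control cells at 20% oxygen, 16.7 and 14.4 times in siOCT4 cells at 1%, 1.80 and 1.57 times in siOCT4 cells at 20%, and 1.85 and 2.11 times in control cells at 1%. GC corrected, the span was 2.81 and 2.17, 3.98 and 3.43, 1.59 and 1.32, and 1.91 and 1.80 in the same order. PHGDH was lowest in all cultures except those of control cells at 1%, where SHMT1 was.

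**Figure D3:**
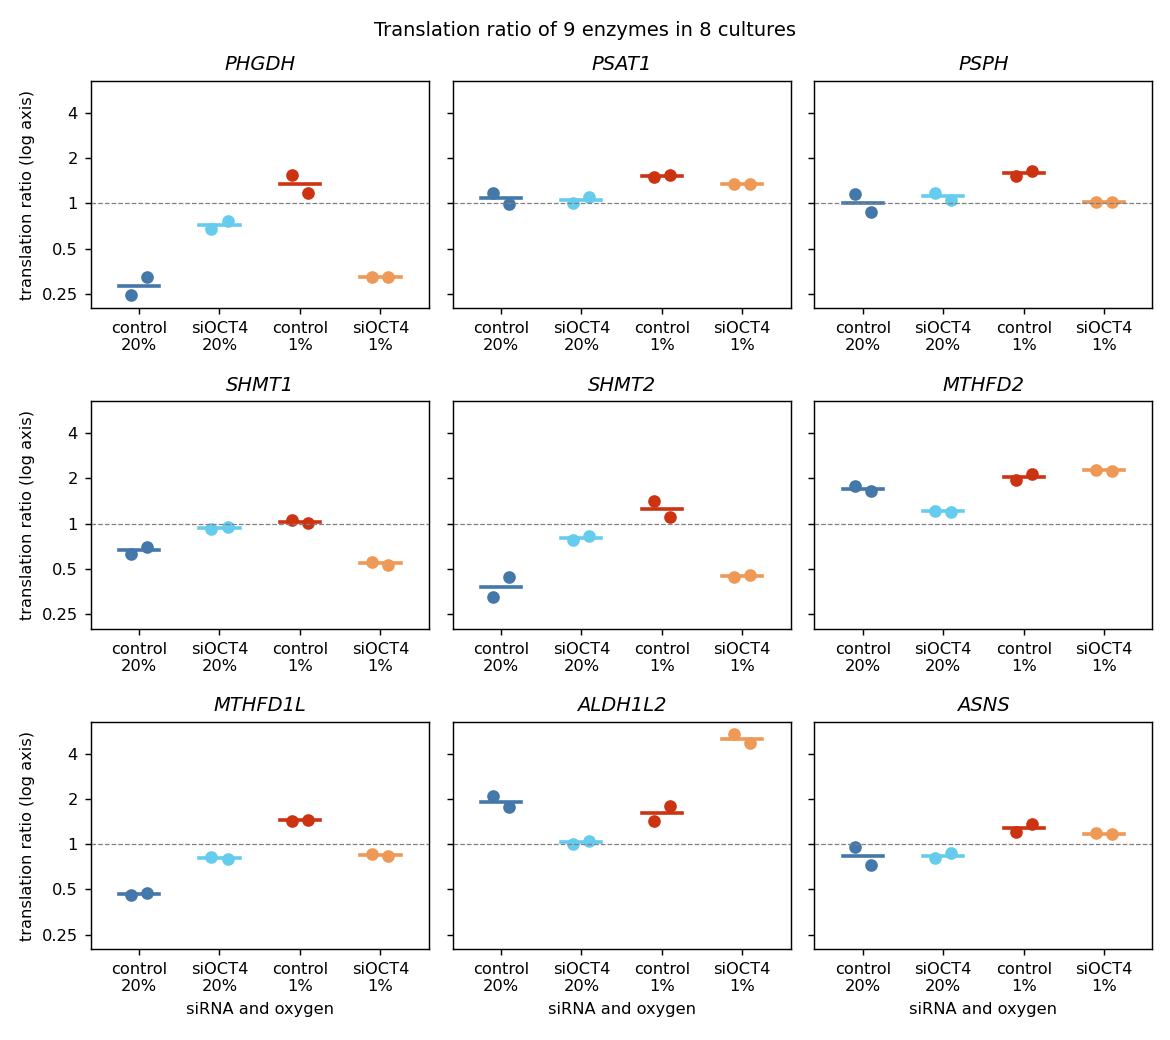
Translation ratio, on a log axis, of each of the 9 enzymes in the 8 cultures (points), with the geometric mean of each group as a bar and a dashed line at 1. The points of control cells at 1% oxygen all lie above 1 and form the highest group for all members except MTHFD2 and ALDH1L2, which were highest in siOCT4 cells at 1%.

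Of the enzymes of serine synthesis, PHGDH, which catalyses the committed first step, varied most as deposited. Its ratio was 0.246 and 0.325 in control cells at 20% oxygen and 0.679 and 0.763 in siOCT4 cells at 20%. It was 1.54 and 1.18 in control cells at 1% and 0.322 and 0.325 in siOCT4 cells at 1%. The control cultures at 1% oxygen were thus the highest, siOCT4 cells at 20% came next without overlap, and the other 2 groups overlapped each other. GC corrected, the order was the same, and its percentile was 84.4 and 80.1 in control cells at 1% against 6.3 to 16.0 elsewhere.

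PSAT1, the aminotransferase of the second step, had ratios of 1.17 and 0.996 in control cells at 20% oxygen and 1.00 and 1.09 in siOCT4 cells at 20%. They were 1.5 and 1.55 in control cells at 1% and 1.34 and 1.35 in siOCT4 cells at 1%. Control cells at 1% were again highest and siOCT4 cells at 1% second, while the 20% groups overlapped. PSAT1 is AT-rich, and a typical gene of its GC content had a log2 ratio of 1.65 and 1.47 in control cells at 20%, so that GC corrected PSAT1 was at percentiles 4.5 and 2.6 there. It was at 7.4 and 7.1 in siOCT4 cells at 1% and at 83.6 and 77.1 in control cells at 1%. GC corrected, its group means ran from 0.53 to -1.45 on the log2 scale, beside 0.57 to -1.08 for PHGDH.

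PSPH, the phosphatase that releases serine, had ratios of 1.15 and 0.877 in control cells at 20% oxygen and 1.17 and 1.05 in siOCT4 cells at 20%. They were 1.52 and 1.65 in control cells at 1% and 1.02 and 1.03 in siOCT4 cells at 1%. Control cells at 1% lay above all others, and the 20% groups overlapped. Its percentiles in control cells at 1% were 83.2 and 86.9 as deposited and 82.6 and 87.6 GC corrected, whereas in siOCT4 cells at 1% they went from 41.1 and 42.3 to 28.0 and 28.3.

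The serine hydroxymethyltransferases, which move a carbon from serine to tetrahydrofolate, shared the order of their 2 highest groups. SHMT2, the mitochondrial form, had ratios of 0.324 and 0.439 in control cells at 20% oxygen, 0.775 and 0.828 in siOCT4 cells at 20%, 1.42 and 1.10 in control cells at 1%, and 0.442 and 0.458 in siOCT4 cells at 1%. SHMT1, the cytosolic form, had ratios of 0.628 and 0.702, 0.920 and 0.958, 1.05 and 1.02, and 0.560 and 0.533 in the same order. For each gene no 2 groups overlapped. SHMT1 moved over the narrower range, and in control cells at 1% it sat in the middle of all genes, at percentiles 53.0 and 49.5, where SHMT2 sat at 79.3 and 57.2.

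The ratio of SHMT2 was below that of SHMT1 in 6 of 8 cultures, at 0.516 and 0.626 of it in control cells at 20% oxygen, and above it, at 1.35 and 1.08 of it, in control cells at 1%. GC corrected, SHMT2 was also the higher of the pair in siOCT4 cells at 1%, by 0.16 and 0.30 on the log2 scale. This pairing was chosen for the enzymes' shared reaction and has no test.

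MTHFD1L, the mitochondrial enzyme that releases formate, had ratios of 0.462 and 0.470 in control cells at 20% oxygen, 0.827 and 0.793 in siOCT4 cells at 20%, 1.42 and 1.45 in control cells at 1%, and 0.863 and 0.835 in siOCT4 cells at 1%. Its cultures of a group lay close together and no 2 groups overlapped. The siOCT4 groups at 20% and at 1% were neighbours in its order and were not called different in the test given below.

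MTHFD2, the dehydrogenase and cyclohydrolase upstream of MTHFD1L, had ratios of 1.79 and 1.64 in control cells at 20% oxygen and 1.22 and 1.19 in siOCT4 cells at 20%. They were 1.95 and 2.15 in control cells at 1% and 2.27 and 2.25 in siOCT4 cells at 1%. As deposited siOCT4 cells at 1% were therefore highest and siOCT4 cells at 20% lowest. GC corrected, control cells at 1% were highest and control cells at 20% lowest, with percentiles of 93.6 and 92.7 against 10.0 and 9.4. One culture's ratio of MTHFD2 was a value that at least 3 genes share.

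ALDH1L2, which oxidises formyl-tetrahydrofolate to carbon dioxide in mitochondria and yields NADPH, was the exception. Its ratio was 2.08 and 1.76 in control cells at 20% oxygen, 1.01 and 1.06 in siOCT4 cells at 20%, 1.42 and 1.80 in control cells at 1%, and 5.39 and 4.69 in siOCT4 cells at 1%. The siOCT4 cultures at 1% were far above the rest, and the control groups overlapped. It remained in the upper part of all genes there after the correction, at percentiles 90.3 and 84.4, where the other 8 members were at 7.1 to 32.4. In control cells at 1% it was at 80.7 and 86.4. In 2 of its 8 cultures the ratio was a shared value of the kind described for MTHFD2.

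ASNS, which makes asparagine from aspartate with the amide of glutamine, had ratios of 0.964 and 0.727 in control cells at 20% oxygen and 0.805 and 0.872 in siOCT4 cells at 20%. They were 1.21 and 1.37 in control cells at 1% and 1.18 and 1.17 in siOCT4 cells at 1%. The 1% cultures lay above the 20% cultures, which overlapped, and the control cultures at 1% lay above the siOCT4 cultures at 1%. GC corrected, ASNS was at percentiles 65.5 and 72.5 in control cells at 1% and at 20.5 or below elsewhere.

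Genes with near-identical copies or overlapping neighbours are less certain, since how the authors assigned shared reads is not stated in the labels. GENCODE 29 names 7 pseudogenes after MTHFD2, 4 after PSAT1, 4 after ASNS, 1 after PSPH and 1 after SHMT1. Exons of SHMT1, SHMT2, MTHFD2 and ALDH1L2 overlap those of a gene on the opposite strand, and exons of ASNS and SHMT1 those of a gene on the same strand, the microRNA gene MIR6778 for SHMT1.

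The comparisons below used limma on the log2 ratio of all 15864 genes, with 2 cultures per group, a two-sided test and Benjamini-Hochberg adjustment over all genes. A gene is called where the adjusted p was under 0.05. The groups are shared between comparisons, so calls in 2 comparisons that use the same cultures are not independent. The median difference of all genes as deposited was -0.09 for siOCT4 at 20% oxygen, 0.42 for siOCT4 at 1%, -0.31 for oxygen in control cells, 0.27 for oxygen in siOCT4 cells and 0.49 for the interaction, and members' values are to be read against these.

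In control cells most of these enzymes had a higher ratio at low oxygen. At 1% against 20% oxygen 7 of the 9 members were higher (20.5% of all genes were called higher) and 0 were lower (39.6% of all genes). The 2 GC-richest members led, PHGDH with a difference of 2.25 ± 0.24 (SE), a 4.75-fold rise (adjusted p = 0.000577), and SHMT2 with 1.73 ± 0.23, a 3.31-fold rise (adjusted p = 0.00119). MTHFD1L rose 3.09-fold (1.63 ± 0.12, adjusted p = 0.000222). PSPH, SHMT1, ASNS and PSAT1 rose 1.58-, 1.56-, 1.54- and 1.41-fold (adjusted p = 0.0167, 0.0092, 0.024 and 0.0224).

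MTHFD2 (0.25 ± 0.13, adjusted p = 0.13) and ALDH1L2 (-0.26 ± 0.18, adjusted p = 0.255) were not called as deposited. GC corrected, all 9 members were higher, against 23.2% of all genes, with a median difference of 1.31 against 0.01 over all genes. The correction raised the fold of the AT-rich members, to 3.95 for PSAT1 (adjusted p = 0.000537), 3.72 for MTHFD2 (adjusted p = 0.000368) and 2.40 for ALDH1L2 (adjusted p = 0.00109), and lowered that of PHGDH to 3.13 (adjusted p = 0.000618). Without replicate 2 of the control cells at 1% oxygen 4 members were called as deposited (54.8% of all genes, higher or lower) and 8 GC corrected (35.9%), PSPH being the one lost (adjusted p = 0.0504).

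In siOCT4 cells the response to low oxygen was mixed. As deposited 2 members were higher (37.4% of all genes) and 3 were lower (21.6%). ALDH1L2 rose 4.88-fold (2.29 ± 0.18, adjusted p = 0.000683) and MTHFD2 1.87-fold (0.91 ± 0.13, adjusted p = 0.00196). PHGDH fell 2.22-fold (adjusted p = 0.00844), SHMT2 1.78-fold (adjusted p = 0.0215) and SHMT1 1.72-fold (adjusted p = 0.00466). MTHFD1L differed by 0.07 ± 0.12 (adjusted p = 0.664), PSPH by -0.12 ± 0.17, PSAT1 by 0.36 ± 0.14 and ASNS by 0.49 ± 0.18 (adjusted p = 0.568, 0.0652 and 0.0534).

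GC corrected, 1 member was higher (19% of all genes) and 5 were lower (17.9%). ALDH1L2 remained higher, at 2.06-fold (adjusted p = 0.00334). MTHFD2 changed direction and was 1.31-fold lower (adjusted p = 0.0233), and PSAT1 was 1.83-fold lower (adjusted p = 0.00546). The fall of PHGDH was then 1.37-fold (adjusted p = 0.0282). The GC corrected calls of PHGDH, MTHFD2 and SHMT2 were lost without each of the 4 siOCT4 cultures in turn. ASNS was at -0.22 ± 0.15 and not called (adjusted p = 0.318). Without replicate 2 of the siOCT4 cells at 20% oxygen 3 members were called as deposited (39.9% of all genes, higher or lower), and GC corrected 3 were called without each of the 4 siOCT4 cultures in turn (13.6% to 23.4%). Under median centring all genes split into 4982 higher and 4615 lower calls, against 5936 and 3426 as deposited.

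Most of these enzymes had a lower ratio in siOCT4 cells than in control cells at 1% oxygen. As deposited 5 members were lower (19.9% of all genes) and 1 was higher (41.1%). PHGDH fell 4.15-fold (-2.05 ± 0.24, adjusted p = 0.000916), SHMT2 2.78-fold (-1.47 ± 0.23, adjusted p = 0.00232), SHMT1 1.89-fold (adjusted p = 0.00223), MTHFD1L 1.70-fold (adjusted p = 0.00303) and PSPH 1.55-fold (adjusted p = 0.0193). ALDH1L2 rose 3.14-fold (1.65 ± 0.18, adjusted p = 0.000688). PSAT1 (-0.18 ± 0.14), ASNS (-0.13 ± 0.18) and MTHFD2 (0.15 ± 0.13) were not called (adjusted p = 0.291, 0.55 and 0.358).

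GC corrected, 8 of 9 were lower (22.3% of all genes) and 0 were higher (21.8%), with a median of -1.06 against -0.01 over all genes. PSAT1 was then 3.07-fold lower (adjusted p = 0.00106), MTHFD2 2.61-fold (adjusted p = 0.000989) and ASNS 1.90-fold (adjusted p = 0.00585). ALDH1L2 was no longer called (0.20 ± 0.12, adjusted p = 0.235). GC corrected, 8 were called in each of the 8 fits that left out a culture, whereas PSPH as deposited was lost without any of the 4 cultures compared. Under median centring all genes split into 5159 higher and 4626 lower calls, against 6516 and 3156 as deposited.

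At 20% oxygen the siOCT4 effect on the members went both ways as deposited, where 4 were higher (19.2% of all genes) and 2 were lower (34.1%). PHGDH rose 2.54-fold (1.35 ± 0.24, adjusted p = 0.00565), SHMT2 2.12-fold (1.09 ± 0.23, adjusted p = 0.00967), MTHFD1L 1.74-fold (adjusted p = 0.00341) and SHMT1 1.41-fold (adjusted p = 0.0267). ALDH1L2 fell 1.85-fold (-0.89 ± 0.18, adjusted p = 0.00844) and MTHFD2 1.42-fold (adjusted p = 0.0185). PSAT1, PSPH and ASNS differed by -0.04 ± 0.14, 0.15 ± 0.17 and 0.00 ± 0.18 (adjusted p = 0.799, 0.478 and 0.994), and for PSAT1 the sign turned under median centring (0.03).

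GC corrected, the difference was above 0 for all 9 members, and 5 were called higher (7.45% of all genes) and 0 lower (7.89%). PSAT1 was 2.35-fold higher and MTHFD2, which changed direction, 1.86-fold higher (adjusted p = 0.0155 for each). MTHFD1L, PHGDH and SHMT2 were 1.51-, 1.53- and 1.48-fold higher (adjusted p = 0.0206, 0.0273 and 0.0417). SHMT1 and ALDH1L2, at 0.34 ± 0.10 and 0.41 ± 0.12, were not called (adjusted p = 0.0686 and 0.0722). Without either siOCT4 culture at 20% oxygen 3 members were called as deposited (34% and 31.9% of all genes, higher or lower). GC corrected, 0 members were called in these 2 fits, in which only 4 and 3 of all genes were, so they say nothing particular to the members. The call of SHMT2 GC corrected was lost in each of the 8 fits that left out a culture. That of PHGDH held in 2 of these fits, with differences of 0.53 to 0.70. MTHFD1L held its call in 5 of them, and PSAT1 and MTHFD2 in 6. As deposited the call of SHMT1 held in 3 of the 8 fits, with differences of 0.42 to 0.58.

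**Figure D4:**
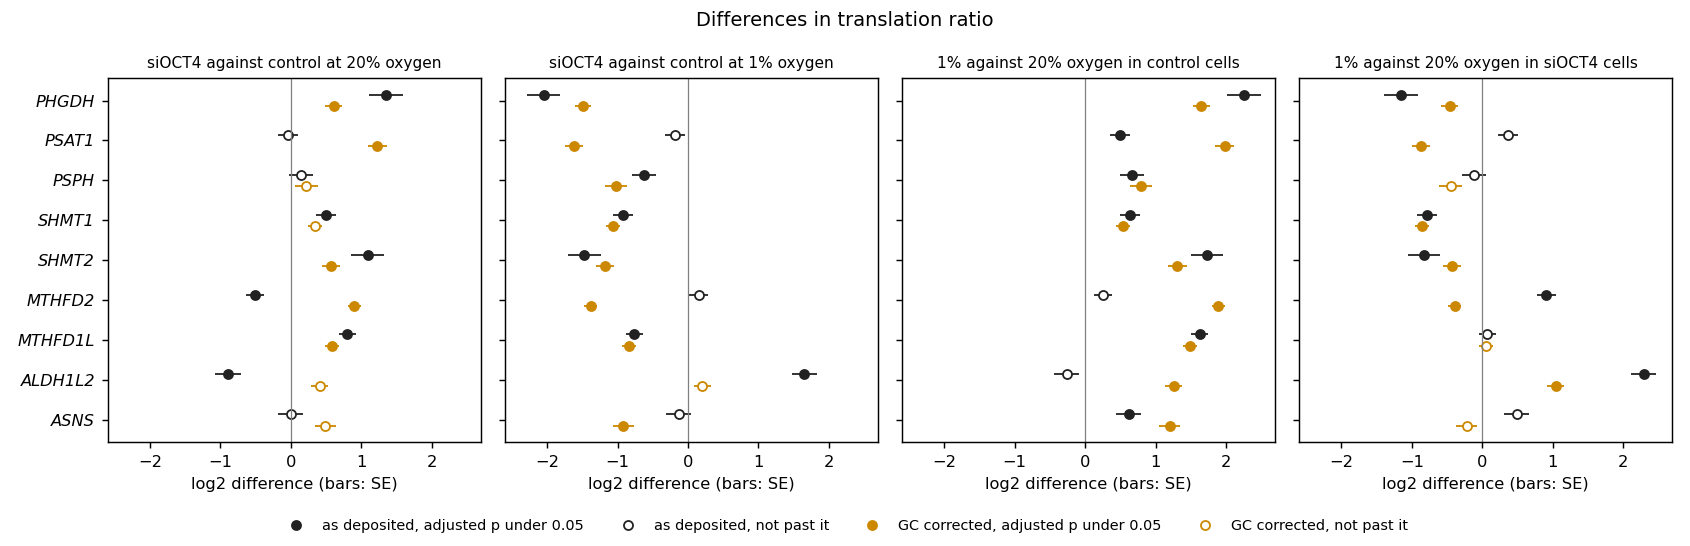
Log2 difference of the translation ratio ± SE (bars) of the 9 members in the 4 comparisons named above the panels, as deposited (black) and GC corrected (orange), with filled points where limma's adjusted p was under 0.05. GC corrected, all 9 points are filled and to the right for 1% against 20% oxygen in control cells, and 8 are filled and to the left for siOCT4 against control at 1% oxygen.

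The groups on the diagonal were compared as well. siOCT4 cells at 1% against control cells at 20% oxygen, the 2 groups with a steep GC curve, had 2 members higher (13.5% of all genes) and 0 lower (13.1%). They were ALDH1L2, 2.63-fold (1.40 ± 0.18, adjusted p = 0.00615), and MTHFD1L, 1.82-fold (0.86 ± 0.12, adjusted p = 0.00772), and the correction moved neither fold by over 1.5 times. MTHFD1L as deposited lost its call without either siOCT4 culture at 1% (highest adjusted p = 0.0637), but GC corrected it was called in each of the 8 fits that left out a culture. GC corrected, MTHFD2 was also higher (1.43-fold, adjusted p = 0.0101) and SHMT1 lower (1.43-fold, adjusted p = 0.012), where 18.3% of all genes were higher and 19.1% lower. Of these 2 calls, MTHFD2 was lost without replicate 1 of the siOCT4 cells at 1% and SHMT1 without either replicate of them. PHGDH differed by 0.19 ± 0.24 (adjusted p = 0.588), and PSPH by 0.03 ± 0.17 (adjusted p = 0.914) or, GC corrected, by -0.23 ± 0.16 (adjusted p = 0.305). Under median centring all genes split into 1518 higher and 2973 lower calls, against 2135 and 2072.

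siOCT4 cells at 20% against control cells at 1% oxygen, the 2 groups with a flatter curve, had 0 members higher (8.78% of all genes) and 2 lower (2.91%). They were MTHFD1L, 1.78-fold (-0.83 ± 0.12, adjusted p = 0.0177), and MTHFD2, 1.70-fold (-0.76 ± 0.13, adjusted p = 0.0222). GC corrected, 7 were lower (11.7% of all genes) and 0 higher (10.7%). Not called were SHMT1 (-0.20 ± 0.10, adjusted p = 0.194) and PSPH (-0.56 ± 0.16, adjusted p = 0.0538). The 5 that the correction added were PHGDH (2.05-fold, adjusted p = 0.00614), ALDH1L2 (1.80-fold, adjusted p = 0.00981), PSAT1 (1.68-fold, adjusted p = 0.0143), SHMT2 (1.67-fold, adjusted p = 0.0159) and ASNS (1.63-fold, adjusted p = 0.0279). As deposited 0 members were called without each of the 4 cultures compared or of the 2 siOCT4 cultures at 1% in turn, where 0% to 5.36% of all genes were called. GC corrected, 2 were called without either siOCT4 culture at 20% (3.59% and 2.56% of all genes). Under median centring all genes split into 947 higher and 660 lower calls, against 1393 and 462.

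The interaction asked whether the siOCT4 effect differed between 1% and 20% oxygen. As deposited it was called negative for 5 members (26.2% of all genes) and called positive for 2 (42.5%). It was -3.40 ± 0.34 for PHGDH (adjusted p = 0.000318), -2.56 ± 0.32 for SHMT2 (adjusted p = 0.000744), -1.56 ± 0.18 for MTHFD1L (adjusted p = 0.000511) and -1.42 ± 0.20 for SHMT1 (adjusted p = 0.00117). It was 2.54 ± 0.25 for ALDH1L2 (adjusted p = 0.000301). GC corrected, it was below 0 for all 9 members, and was called negative for 8 (21.2% of all genes) and called positive for 0 (22.5%). PHGDH was then at -2.11 ± 0.16 and SHMT2 at -1.74 ± 0.19 (adjusted p = 0.00102 and 0.00161), and PSAT1 at -2.85 ± 0.18 and MTHFD2 at -2.28 ± 0.13 (adjusted p = 0.000989 for each). As deposited PSAT1 had been at -0.14 ± 0.19 and not called (adjusted p = 0.555), and MTHFD2 at 0.65 ± 0.18 (adjusted p = 0.0186). ASNS went from -0.13 ± 0.25 (adjusted p = 0.661) to -1.41 ± 0.22 (adjusted p = 0.0046). ALDH1L2, at -0.22 ± 0.17 GC corrected, was not called (adjusted p = 0.343).

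Across the 8 cultures the members' log2 ratios moved together more after the GC correction than before it. Of the 36 pairs, 28 had a Pearson correlation above 0 as deposited, with a median of 0.53, and 35 did GC corrected, with a median of 0.86. The points of each pair share their libraries and the group structure, and n is 8 cultures, so these values describe the set only. PHGDH and SHMT2 had the closest profiles as deposited (1.0, and 0.99 GC corrected). PSAT1 and ASNS followed with 0.98 (0.94 GC corrected). PHGDH and MTHFD2, the first enzyme of serine synthesis and a mitochondrial folate enzyme, went from -0.16 to 0.98. ALDH1L2 and SHMT1 went from -0.84 to -0.21, the 1 pair not above 0 GC corrected.

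Genes with a profile most like the mean of the 9 members were sought among the 8099 other genes without shared ratio values. By Pearson's correlation over the 8 cultures these were WARS, the cytosolic tryptophan tRNA ligase (0.988), CHKA, a choline kinase (0.988), TIMP3, an inhibitor of matrix metalloproteinases (0.986), PPME1, a protein phosphatase methylesterase (0.985), and C1orf226 (0.983). In all, 178 of the 8099 genes were above 0.9. Nearest to ASNS alone were HSD17B7 (0.979), PREP (0.974) and SLC2A3 (0.973), among 26 genes above 0.9. Among the genes nearest to PHGDH were KCTD5 and LSS (0.998 each), of 815 above 0.9, with GC contents of 55.2% and 58.3% beside 58.3% for PHGDH.

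Neighbouring genes of the pathway are given by list, with shares of all genes to read the counts against. Of the folate and methionine cycle genes outside the members, 29 of 34 were tested, and 7 were higher and 12 lower at 1% against 20% oxygen in control cells (9 and 4 GC corrected). These are 24.1% and 41.4% of the list, near the 20.5% and 39.6% of all genes, and GC corrected 31% and 13.8%, against 23.2% and 23.1%. SLC25A32, the mitochondrial folate carrier, had ratios of 5.54 and 3.72 in control cells at 20% and 0.474 and 0.671 at 1%, an 8.05-fold fall (adjusted p = 0.000336) that stayed a fall GC corrected (-1.19, adjusted p = 0.00471). PPAT, the first enzyme of purine synthesis, fell 6.79-fold, from 8.05 and 5.45 to 0.86 and 1.10 (adjusted p = 0.000274, with -0.68 at an adjusted p of 0.00802 GC corrected). GGH, which trims folate polyglutamates, had ratios of 6.56 and 6.36 in control cells at 20% and 1.05 to 1.79 in the other 6 cultures, so that siOCT4 cells at 20% were 3.81-fold lower (adjusted p = 0.000653, with -1.43 at an adjusted p of 0.0159 GC corrected).

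In the same list siOCT4 against control at 1% oxygen gave 13 higher and 5 lower genes (5 and 6 GC corrected). These shares, 44.8% and 17.2%, or 17.2% and 20.7% GC corrected, were near those of all genes, 41.1% and 19.9%, or 21.8% and 22.3%. AHCY, which clears S-adenosylhomocysteine, had ratios of 0.744 and 0.724 in control cells and 0.325 and 0.329 in siOCT4 cells, a 2.25-fold fall (adjusted p = 0.00232, with -0.78 at an adjusted p of 0.00958 GC corrected). The cytosolic MTHFD1 had ratios of 1.28 and 1.24 in siOCT4 cells at 1% against 0.615 and 0.664 in control cells at 20%, a 1.97-fold rise (adjusted p = 0.00634). At 20% oxygen siOCT4 gave 5 higher and 9 lower, 17.2% and 31% against 19.2% and 34.1% of all genes (7 and 2 GC corrected, 24.1% and 6.9% against 7.45% and 7.89%). For 1% against 20% oxygen in siOCT4 cells it gave 14 higher and 5 lower, 48.3% and 17.2% against 37.4% and 21.6% (4 and 7 GC corrected, 13.8% and 24.1% against 19% and 17.9%).

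Of the genes that use glycine and serine, 17 of 19 were tested. At 1% against 20% oxygen in control cells 5 were higher and 9 lower (2 and 2 GC corrected), and for siOCT4 against control at 1% oxygen 7 were higher and 5 lower (0 and 6 GC corrected). In the first comparison the shares were 29.4% and 52.9% against 20.5% and 39.6% of all genes, and GC corrected 11.8% in each direction against 23.2% and 23.1%. In the second they were 41.2% and 29.4% against 41.1% and 19.9%, and GC corrected 0% and 35.3% against 21.8% and 22.3%. GCAT, which makes glycine from threonine breakdown, had ratios of 1.39 and 0.997 in control cells at 1% and 0.316 and 0.354 in siOCT4 cells at 1%, a 3.53-fold fall (adjusted p = 0.00257, with -0.99 at an adjusted p of 0.00386 GC corrected). SFXN1, the mitochondrial serine carrier, went the other way as deposited, from 0.797 and 0.934 to 1.93 and 2.05 (2.31-fold, adjusted p = 0.00108), but was at 0.01 GC corrected (adjusted p = 0.967). GCSH, of the glycine cleavage system, was 4.49-fold lower at 1% than at 20% oxygen in control cells (adjusted p = 0.000748) and at -0.42 GC corrected (adjusted p = 0.173).

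Among genes of other amino acid synthesis, 21 of 24 were tested. In control cells 8 were higher and 3 lower at 1% oxygen (7 and 2 GC corrected), and siOCT4 against control at 1% gave 6 higher and 10 lower (3 and 9 GC corrected). For oxygen the shares were 38.1% and 14.3% against 20.5% and 39.6% of all genes, and GC corrected 33.3% and 9.52% against 23.2% and 23.1%. For siOCT4 they were 28.6% and 47.6% against 41.1% and 19.9%, and GC corrected 14.3% and 42.9% against 21.8% and 22.3%. GPT2, the mitochondrial alanine aminotransferase, had ratios of 0.472 and 0.587 in control cells at 20% and 1.49 and 1.29 at 1%, a 2.63-fold rise (adjusted p = 0.000833, with 0.97 at an adjusted p of 0.00101 GC corrected). PYCR1 and ASL, of proline and arginine synthesis, fell 3.42- and 3.07-fold in siOCT4 against control cells at 1% (adjusted p = 0.00738 and 0.000635, with -0.97 and -0.98 GC corrected at adjusted p = 0.00879 and 0.00331).

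The list of 31 other ATF4 pathway genes, all tested, had 19 higher and 10 lower at 1% against 20% oxygen in control cells (23 and 3 GC corrected), with a median difference of 1.79 (1.55 GC corrected). The shares were 61.3% and 32.3% against 20.5% and 39.6% of all genes, and GC corrected 74.2% and 9.68% against 23.2% and 23.1%. For siOCT4 against control at 1% oxygen 11 were higher and 19 lower (4 and 20 GC corrected), with a median of -1.30 (-0.92 GC corrected). The shares were 35.5% and 61.3% against 41.1% and 19.9% of all genes, and GC corrected 12.9% and 64.5% against 21.8% and 22.3%. TRIB3, a pseudokinase induced by stress, had ratios of 0.115 and 0.119 in control cells at 20% and 3.02 and 2.72 at 1%, a 24.5-fold rise (adjusted p = 0.000152, with 3.88 on the log2 scale at an adjusted p of 0.000348 GC corrected). SLC3A2, which brings amino acid exchangers to the cell surface, had 2.30 and 1.90 in control cells at 1% and 0.395 and 0.371 in siOCT4 cells at 1%, a 5.46-fold fall (adjusted p = 0.000313). The members' folds in control cells, 4.75 at most, were smaller than that of TRIB3. XPOT, a tRNA exporter, fell 7.27-fold at 1% oxygen in control cells (adjusted p = 0.000194, with -1.14 at an adjusted p of 0.00185 GC corrected). ATF4 itself had ratios of 1.17 and 1.46 in control cells at 20%, 1.09 and 1.12 in siOCT4 cells at 20%, 0.901 and 0.754 in control cells at 1%, and 0.84 and 0.835 in siOCT4 cells at 1%. It was thus lower in both 1% groups than in both 20% groups, without overlap.

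Promoters were searched for the composite element TGATGNAA, which ATF4 and C/EBP proteins are known to bind, on both strands of the 300 bases from 250 before to 50 after each RefSeq start (GRCh38.p14). It is present in 3.62% of 35116 promoters. Promoters were listed for 6 members (PHGDH, PSAT1, SHMT1, MTHFD2, MTHFD1L and ASNS), and PSPH, SHMT2 and ALDH1L2 were not searched. ASNS and MTHFD1L hold a match, shown in capitals within 50 bases, at chr7:97872448-97872497 on the minus strand, 68 bases before the start of ASNS, and at chr6:150866336-150866385 on the plus strand, 129 bases before one start of MTHFD1L.
ASNS: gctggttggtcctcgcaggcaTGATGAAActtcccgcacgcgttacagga
MTHFD1L: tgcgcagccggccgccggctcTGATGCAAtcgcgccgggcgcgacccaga
The E-box CACGTG was found for MTHFD1L only (7.26% of promoters), and the core ACGTG of hypoxia response elements, which overlaps it, for MTHFD1L and MTHFD2 (21.4%). A match describes the letters in these windows, and the ratio does not measure transcription.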

How the data were processed

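Sequencing gave 16 libraries, 8 of total RNA and 8 of RNC, from 8 cultures. The authors deposited 1 table of the unit ratio, the RNC value over the RNA value of each gene and culture. The submitters' processing notes name edgeR and hg19 without a role. Mapping, annotation, filters and depth are not stated there, so no interval from counts can be given. A dash was read as no ratio, and columns marked sO as siOCT4. Of the genes listed, 15864 had a ratio in every culture and were tested, 4505 had a partial set and 7883 had no ratio. Values of 3 or more genes of a culture within a relative tolerance of 2e-06 were called shared.

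The model was fitted to log2 ratios in R 4.3.3 by limma 3.58.1 with trend and robust settings (through statmod 1.5.0) as 4 group means, with 4 residual degrees of freedom and 7 comparisons. The fit was also run on simulated ratios, to see that known differences were recovered. These had few changed genes, independent errors and no GC trend, so they do not test the calls made here. The GC correction took residuals from a spline of 6 degrees of freedom on the GC content of the longest GENCODE 29 transcript, matched by symbol for 15261 genes (96.2%). GENCODE 29 is on GRCh38, another build than the hg19 named in the notes. Its coordinates served to cut the coding sequences and to find overlapping exons, and none of them is printed. Figures used matplotlib 3.10.9, and tables pandas 2.3.3 with numpy 2.4.6 under Python 3.11.15. Named pathway genes are some of those taken by a rule, up to 2 per list, direction and comparison with the largest called difference, and some genes that the rules pick are not reported here. Members and lists were chosen with earlier results of these data known. ATF4 and POU5F1 are shown as the regulator and the target. Alternatives were other scalings, corrections for GC content and length, the replicate number as a block, other limma settings, pseudocounts, gene filters and leaving out each culture in turn, where a lone culture was assumed to vary like the other groups.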

Additional observations from a re-analysis of the deposited data

Results flagged for a closer look

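The siOCT4 effect on the log2 ratio differed between 1% and 20% oxygen, by limma's interaction term as deposited, for 7 of the 9 members. The difference, the effect at 1% minus that at 20%, was -3.40 for PHGDH, -2.56 for SHMT2, -1.56 for MTHFD1L, -1.42 for SHMT1 and -0.78 for PSPH (adjusted p = 0.0274), and 2.54 for ALDH1L2 and 0.65 for MTHFD2 (adjusted p = 0.0186). GC corrected, the last pair became -0.22 for ALDH1L2 (adjusted p = 0.343) and -2.28 for MTHFD2. In 6 of the 8 fits that left out a culture PSPH lost its call, and MTHFD2 in 4.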

How the results depend on the processing

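Counts of members called, out of 9, changed with the processing as follows. For siOCT4 against control at 20% oxygen (6 as deposited) they were 0 under quantile normalization, 2 GC corrected with the replicate block, 3 with only the groups compared in the fit, and 3 to 6 when each culture was left out in turn (0 to 4 GC corrected). For 1% against 20% oxygen in control cells (7) they were 3 with only the groups compared and 4 to 7 with a culture left out. For 1% against 20% in siOCT4 cells (5) they were 2 under quantile normalization, 3 GC corrected with the replicate block, and 3 to 7 with a culture left out (3 to 7 GC corrected). For siOCT4 at 1% against control at 20% (2) they were 0 under quantile normalization, 4 GC corrected, 5 GC and length corrected, 4 GC corrected with the block, 1 with only the groups compared, and 1 to 3 with a culture left out (2 to 5 GC corrected). For siOCT4 at 20% against control at 1% (2) they were 4 under median centring, 9 under quantile normalization, 7 GC corrected, 8 GC and length corrected, 0 with the replicate block, 6 GC corrected with the block, 0 with only the groups compared, 5 without genes of shared ratios, and 0 to 5 with a culture left out (2 to 8 GC corrected). Counts for siOCT4 at 1% and for the interaction stayed within 1.5 times under every alternative run. All genes called for siOCT4 at 20% oxygen fell from 8450 to 2341 GC corrected and to 1838 under quantile normalization.

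The log2 difference of a member changed sign as follows. At 20% oxygen siOCT4 gave PSAT1 0.03 under median centring, 1.23 GC corrected, 1.20 GC and length corrected and 1.23 GC corrected with the replicate block. In that order of the last 3, MTHFD2 was at 0.90, 0.93 and 0.90 and ALDH1L2 at 0.41, 0.41 and 0.41, while quantile normalization gave 0.01 for MTHFD2 and -0.54 for ASNS. At 1% oxygen siOCT4 gave MTHFD2 -0.24 under median centring, -1.02 under quantile normalization, and -1.38, -1.44 and -1.38 in the 3 GC corrections, and ALDH1L2 -0.12 GC and length corrected. Oxygen in control cells gave ALDH1L2 0.68 under quantile normalization and 1.26, 1.24 and 1.26 in the GC corrections. Oxygen in siOCT4 cells gave MTHFD1L -0.19 under median centring and -0.08 GC and length corrected, and in the GC corrections PSAT1 -0.87, -0.54 and -0.87, MTHFD2 -0.39, -0.46 and -0.39, and ASNS -0.22, -0.03 and -0.22. For siOCT4 at 1% against control at 20%, PSPH was at -0.16 under median centring, -0.04 under quantile normalization and -0.23, -0.03 and -0.23 in the GC corrections. The interaction of MTHFD2 was -1.03 under quantile normalization and -2.28, -2.37 and -2.28 in the GC corrections, and that of ALDH1L2 -0.22, -0.54 and -0.22. With a culture left out, siOCT4 at 20% ranged over -0.16 to 0.07 for PSAT1, -0.04 to 0.34 for PSPH and -0.20 to 0.21 for ASNS, siOCT4 at 1% against control at 20% over -0.00 to 0.39 for PHGDH and -0.16 to 0.22 for PSPH, and the interaction over -0.33 to 0.07 for ASNS. The cause of these changes was not tested.

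The difference between replicates 1 and 2 correlated between groups at -0.233 to 0.0225 across genes, or at -0.0802 to 0.00235 GC corrected. The lowest value was that of the control groups at 20% and 1% oxygen. These correlations do not decide whether replicate numbers pair the cultures, which the labels do not state. The replicate block alone weakened 3 of 63 member results and turned none. With the numbers crossed in control cells at 1% oxygen, an alternative chosen after seeing the data, 7 members were called for oxygen in control cells. Pseudocounts of 0.01 and 0.1 and a ratio in at least 6 of 8 cultures changed no call of a member. Depth is unknown, so what counting error adds cannot be given.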
